A study of Zea mays with 28 samples.

Results

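ZmDDM1A-only regions are stretches of the maize genome that were called for the ZmDDM1A antibody in both wild-type (WT) libraries and for neither of the other 2 proteins tested. The peaks of the 6 WT lists, from the antibodies against ZmDDM1A, ZmDDM1B and ZmAGO4 with 2 libraries each, were merged wherever they shared at least 1 bp. This gave 122155 merged regions, of which 33169 held a peak of both ZmDDM1A lists. Of these, 866 held no peak of any ZmDDM1B or ZmAGO4 list, which is 2.61% (95% exact interval 2.44 to 2.79). The other 32303 comprised 27691 regions with peaks of all 3 antibodies, 3047 with ZmDDM1B and no ZmAGO4 peak, and 1565 with ZmAGO4 and no ZmDDM1B peak. The members were chosen by the WT peak calls, so their number and their WT values are given as a description and are not tested.

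DDM1 is a chromatin remodeller of the SNF2 type that moves nucleosomes with the energy of ATP, and plants need it to keep DNA methylation and silencing over transposons and other repeats. ZmDDM1A and ZmDDM1B are its maize homologues. ZmAGO4 is an Argonaute protein, of the kind that holds small RNAs and guides the enzymes of RNA-directed DNA methylation to matching sites. A region of the ZmDDM1A-only kind is thus one where a remodeller was called without its homologue and without the Argonaute.

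Chromatin was taken from developing W22 embryos, W22 being a maize inbred line, at 18 days after pollination. The plants were grown in the field, and the submitting laboratory made the antibodies. The groups used were WT embryos with the ZmDDM1A, ZmDDM1B or ZmAGO4 antibody, zmddm1a embryos with the ZmDDM1A antibody and zmddm1b embryos with the ZmDDM1B antibody, 2 libraries each. The zmddm1a lists were made with the antibody whose antigen's gene is mutated, and so give the calls of that antibody in the mutant. The sources used here do not give the nature of the mutant alleles, nor whether any ZmDDM1A protein remained in zmddm1a embryos. Libraries of a group carry replicate numbers, but no label ties them to separate plants, so a p-value rests on how far these libraries differ, and that difference may be technical.

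The WT ZmDDM1A lists held 45957 and 45011 peaks, the WT ZmDDM1B lists 56570 and 53298, and the WT ZmAGO4 lists 99625 and 98086. The zmddm1a lists were far shorter, with 817 and 883 peaks, as were the zmddm1b lists, with 1870 and 766. Positions are of B73 RefGen_v4 and counted from 1. Genes and sequence there were not analysed here.

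The ZmDDM1A-only regions were narrow, and most had modest folds. Their median width was 362 bp, against 1524 bp for the regions of all 3 antibodies, which are wider by construction because they join more peaks. The ZmDDM1A peaks themselves had medians of 299 and 293 bp in replicates 1 and 2, against 447 and 470 bp in regions of all 3 antibodies. With ZmDDM1B and no ZmAGO4 peak these were 357 and 382 bp. With ZmAGO4 and no ZmDDM1B peak they were 291 and 295 bp, much as in the members. In 853 of the 866 regions each ZmDDM1A list held a single peak.

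Fold enrichment is the authors' value of the ChIP signal over the local background at a peak's summit. In replicate 1 the folds of the 866 regions ran from 1.49 through a median of 3.49 to 34.4, and in replicate 2 from 1.22 through 3.31 to 34.6. Over the other ZmDDM1A regions the medians were 4.36 and 4.28, so the members' medians lay lower in both libraries. Those others are mostly regions of all 3 antibodies. Regions with ZmAGO4 and no ZmDDM1B peak had medians of 3.66 and 3.58, and those with ZmDDM1B and no ZmAGO4 peak 3.83 and 3.78. Of the members, 139 with a very high local background, described further on, had 1.99 and 1.59. The remaining 727 had 3.75 and 3.68, above the regions with ZmAGO4 and no ZmDDM1B peak. Regions of high background were not removed from that class, so the 2 sets are not filtered alike. The members held more regions at both ends of the scale. The smaller of the 2 folds was at least 10 in 26 members (3.00%) and in 225 other ZmDDM1A regions (0.697%). It was under 2 in 130 of the 866 members and in 144 of the 32303 others. The stricter level of −log10 q of at least 5 was met in both libraries by 611 members (70.6%) and by 87.8% of the others.

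The 2 replicates placed the members alike and gave correlated folds. The strongest summits of the replicates lay a median of 32 bp apart, against 41 bp in the other ZmDDM1A regions. Within 200 bp they lay in 91.8% of the members and 89.1% of the others. In members the ZmDDM1A peaks could be joined only by overlapping each other. In other regions they could also be joined through another antibody's peak. The rule thus favours shorter distances in the members. The median distance was 7 bp at the high-background members and 37 bp at the rest, and 35 bp in regions with ZmAGO4 and no ZmDDM1B peak. Across the 866 regions the log2 folds of the replicates had a Pearson correlation of 0.86, and across the 727 without high background of 0.80. This describes regions that share 2 libraries and a local sequence, and they are not independent replicates.

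**Figure D1:**
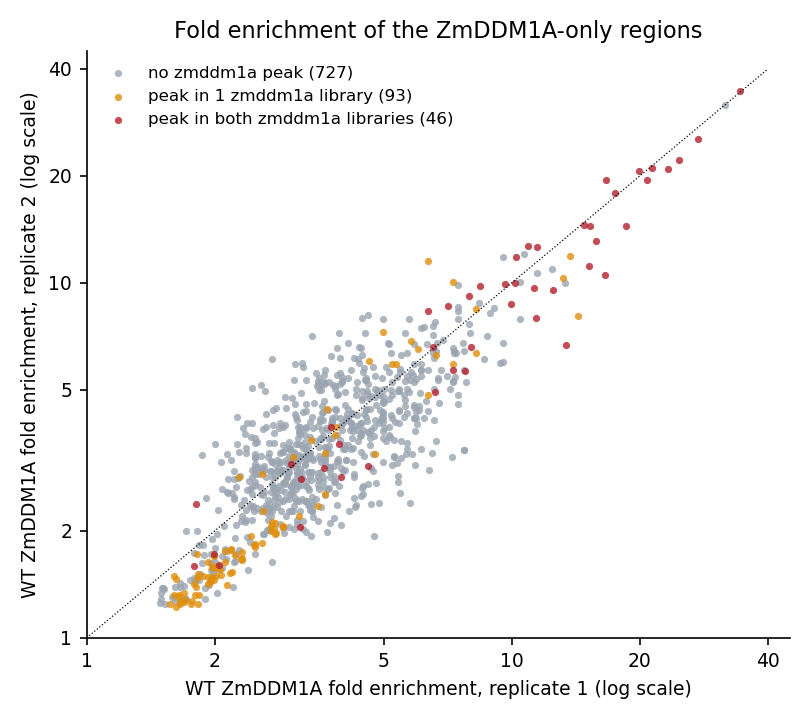
Each point is 1 of the 866 ZmDDM1A-only regions, placed by its fold enrichment in WT ZmDDM1A replicate 1 (x axis) and replicate 2 (y axis), both on log scales; the dotted line marks equal folds. Colours give the number of zmddm1a libraries with a peak there: the points with a peak in both (46) lie mostly at high folds, and those with a peak in 1 library lie mostly at low folds.

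The members with the highest folds were mostly called in the mutant as well. The 10 members with the highest smaller fold had WT folds of at least 16.7, and 9 of them held a peak in both zmddm1a libraries. Of all ZmDDM1A regions, 1.05% held a peak in both. This was not particular to members: at smaller folds of at least 10, either zmddm1a library met 76.9% of 26 members and 71.6% of 225 others. Each list was called separately, so WT and mutant folds are set side by side and not tested against each other. The strongest member (chromosome 8, 20539574 to 20540041) had folds of 34.4 and 34.6 in the WT libraries and of 29.6 and 9.84 in the zmddm1a libraries. That on chromosome 2 at 12445767 to 12446227 had WT folds of 27.4 and 25.4 and zmddm1a folds of 23.8 and 23.1. The 2 mutant libraries thus gave like folds at the second of these regions and unlike folds at the first.

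On chromosome 5 the region at 109441823 to 109442278 had WT folds of 21.3 and 21.1 and zmddm1a folds of 19.1 and 16.3. On chromosome 6 the region at 29823933 to 29824483 had WT folds of 23.2 and 20.9 and zmddm1a folds of 15.8 and 17.0. On chromosome 8 the region at 105360131 to 105360656 had WT folds of 24.7 and 22.1 and zmddm1a folds of 11.7 and 17.7. In each of these 3 regions, as in the rest of the 9, both mutant values were below both WT values. The regions were picked for their high WT folds, which favours this direction, so nothing is read from it. The other 4 of the 9 began at position 14256760 of chromosome 4, positions 26041724 and 48881191 of chromosome 3 and position 119190674 of chromosome 6, and had zmddm1a folds between 9.48 and 17.6. None of the 10 held a zmddm1b peak, which only 2.86% of all ZmDDM1A regions held in either library.

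The exception among the 10 (chromosome 6, 159037019 to 159037415) had folds of 31.7 and 31.7 in WT and no peak in either zmddm1a library. Its summits lay 8 bp apart, and the nearest ZmAGO4 and ZmDDM1B peaks were 9341 and 9390 bp away. The next strongest members without a zmddm1a peak were far weaker. They began at position 197334012 of chromosome 3 (folds of 12.4 and 10.9), position 140516501 of chromosome 2 (10.7 and 12.0) and position 190894795 of chromosome 4 (11.4 and 10.6), and were picked after the values were seen. The member on chromosome 6 had more than 2 times their fold in each library.

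The zmddm1a lists played no part in choosing the members, though they come from the antibody that every ZmDDM1A region was selected on. Members were called in zmddm1a more often than other ZmDDM1A regions: 58 of 866 (6.70%, 95% exact interval 5.12 to 8.57) held a peak of zmddm1a replicate 1 and 127 (14.7%, 12.4 to 17.2) a peak of replicate 2. Of these 127, 70 lay at members with a very high local background, described further on, and without such members the replicate 2 share was 7.84%. Over all 33169 ZmDDM1A regions the background was 2.39% in replicate 1 and 2.2% in replicate 2. For regions of all 3 antibodies the shares were 2.43% and 1.87%, for those with ZmAGO4 alone 2.24% and 2.75%, and for those with ZmDDM1B alone 0.853% and 1.38%. The members exceeded each of these classes in both libraries. Their merged regions were the narrowest by median, and the part of width in these shares was not tested. These intervals take in counting error alone, while regions that neighbour each other share their surroundings. No p is given between classes, since regions of 1 library are not replicates.

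A peak in both zmddm1a libraries was held by 46 members (5.31%, 3.91 to 7.02), against 1.05% of all ZmDDM1A regions, and a peak in either by 139 (16.1%), against 3.54%. Seen from the mutant lists, the members accounted for 7.10% of the peaks of zmddm1a replicate 1 and 14.8% of those of replicate 2, while all ZmDDM1A regions together accounted for 98.0% and 84.4%. At the 46 members the median fold was 10.1 and 9.37 in the WT libraries and 7.86 and 7.44 in the zmddm1a libraries, where the medians of the whole lists were 4.50 and 4.10.

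Few members were called in zmddm1b. Those lists were made with the ZmDDM1B antibody, and the members were selected for having no WT peak of that antibody, so a low share there follows in part from the rule. Peaks of zmddm1b met 6 members (0.693%, 0.255 to 1.502) in replicate 1 and 11 (1.27%, 0.636 to 2.26) in replicate 2, where the background over all ZmDDM1A regions was 2.72% and 0.419%. The share of members was thus below the background in 1 library and above it in the other. Either zmddm1b library met 11 members, against a background of 2.86%, and both met 6, against 0.283%, so every member met in replicate 1 was also met in replicate 2. The mean share of members was 10.7% ± 5.63 (SD, n = 2) in zmddm1a and 0.982% ± 0.408 (SD, n = 2) in zmddm1b, and both zmddm1a libraries lay above both zmddm1b libraries. The rule asked for WT peaks of the one antibody and for none of the other, which favours this direction. The regions with ZmAGO4 and no ZmDDM1B peak, selected in the same way, stood at 2.49% and 0.192%, and those of all 3 antibodies at 2.15% and 1.77%. The exact permutation test planned for these 2 against 2 libraries gave p = 0.33 (two-sided), the smallest value that the design allows, and nothing is read from it. Antibody and genotype differ together between the mutants and cannot be told apart, and the depth behind the mutant lists was not measured here.

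**Figure D2:**
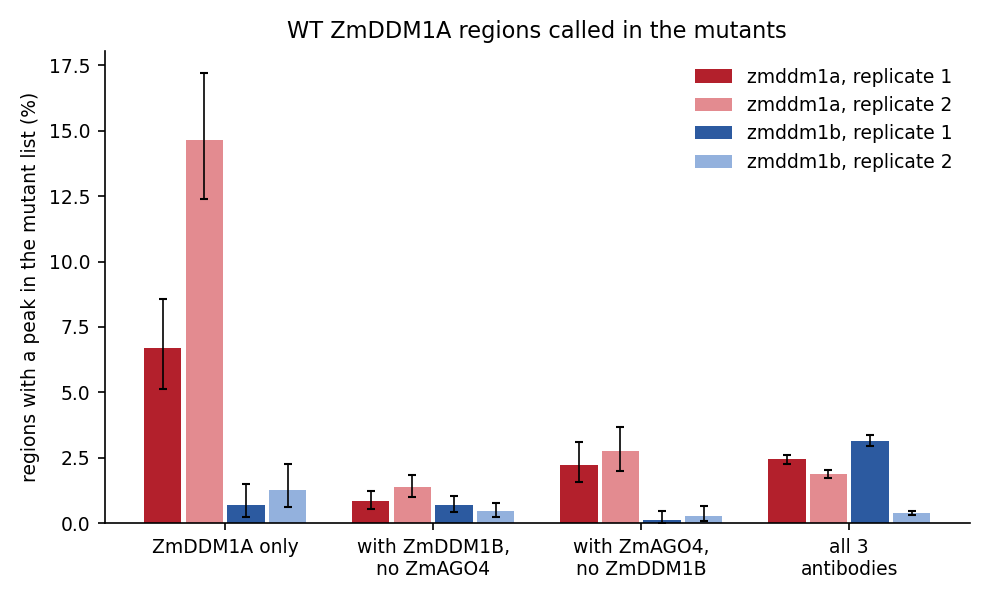
Bars give the share of WT ZmDDM1A regions, in percent, that held a peak of each of the 4 mutant libraries, for ZmDDM1A-only regions and the 3 other classes; error bars are 95% exact binomial intervals. The ZmDDM1A-only regions stand at 6.70% and 14.7% in the zmddm1a libraries and at 0.693% and 1.27% in the zmddm1b libraries.

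The 2 zmddm1a libraries differed in which members they called, and the background at the summit moved with this difference. The authors' fold and p-value at a summit together fix its ChIP pileup and its local background, both as numbers of overlapping fragments. In the WT ZmDDM1A libraries a whole-number pileup matched the listed values within 0.001 at 99.997% and 100% of the regions. The lowest background in the 2 libraries was 3.41 and 3.57 fragments. Most members lay near it: 674 of 866 (77.8%) had a mean background of at most 15.

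A separate set of members lay in places of very high background. In 139 members (16.1%) the mean background of the 2 WT libraries was above 50, and only 7 lay between 30 and 50. The limit of 50 was set after these values were seen. The medians of the 139 were 139 fragments in replicate 1 and 192 in replicate 2, which is 40.7 and 53.8 times the lowest background. Their pileups were high as well, with medians of 286 and 302, so that their folds were low, with medians of 1.99 and 1.59. Among the other 32303 ZmDDM1A regions only 52 (0.161%) had such a background, so the members made up 72.8% of the 191 ZmDDM1A regions of this kind.

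The 139 high-background members are not the 139 members with a zmddm1a peak, the equal numbers being a coincidence: 70 regions belong to both sets. Of the high-background members, 4 (2.88%) held a peak of zmddm1a replicate 1 and 70 (50.4%) one of replicate 2. The 52 other high-background ZmDDM1A regions were met more often, 2 (3.85%) by replicate 1 and 36 (69.2%) by replicate 2. So among high-background regions the members were not the more often called, unlike in the whole set. High-background members also included 5 of the 6 members met by zmddm1b replicate 1 and 9 of the 11 met by replicate 2. These are 3.60% and 6.47% of the 139, whereas the zmddm1b libraries met 5 and 13 of the 52 others.

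Without the high-background members the 2 zmddm1a libraries gave nearly equal shares. Of the other 727 members, 54 (7.43%, 5.63 to 9.58) held a peak of zmddm1a replicate 1 and 57 (7.84%, 5.99 to 10.04) one of replicate 2, and 42 held both. The other ZmDDM1A regions with a background of at most 50 stood at 2.27% and 1.76%. In the zmddm1b lists 1 and 2 of the 727 members were met (0.138% and 0.275%), against 2.76% and 0.357% of the other regions. The mean share of these members was 7.63% ± 0.292 (SD, n = 2) in zmddm1a and 0.206% ± 0.0973 (SD, n = 2) in zmddm1b, a direction that the rule again favours.

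**Figure D3:**
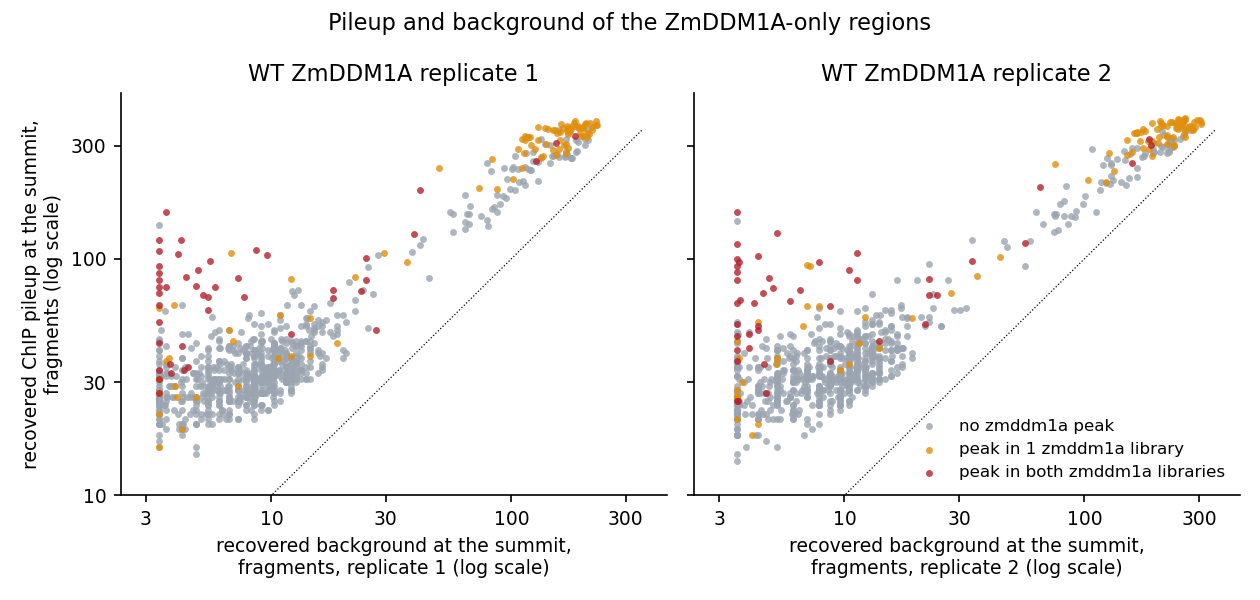
Each point is 1 of the 866 ZmDDM1A-only regions, placed by the recovered background (x axis) and ChIP pileup (y axis) at its strongest summit, as numbers of fragments on log scales, in WT ZmDDM1A replicate 1 (left) and replicate 2 (right); the dotted line marks equal values. Members with a peak in both zmddm1a libraries lie mostly at the low end of the background of the axis, and members with a peak in 1 zmddm1a library lie mostly at backgrounds above 50.

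Among members with a background of at most 50 the share called in zmddm1a was higher at higher WT folds. Of 278 members whose smaller fold was under 3, a peak of either zmddm1a library met 9 (3.24%). The shares were 4.65% of 215 members with a fold of 3 to 4, 6.37% of 157 with 4 to 6, 39.2% of 51 with 6 to 10, and 76.9% of 26 with at least 10. In the other ZmDDM1A regions the shares were 0.406%, 1.03%, 3.38%, 11.2% and 71.6% in the same order. Among these, regions with ZmAGO4 and no ZmDDM1B peak stood at 0.328%, 0.936%, 3.06%, 15.9% and 81.8%. The last share was of 22 regions and lay above that of the members. The 26 members with a fold of at least 10 give a wide 95% exact interval, of 56.4 to 91.0%. The limits of these fold groups were set after the values were seen, and no test was made on them.

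The members with the highest folds also had the lowest background. The fold is the pileup divided by this background, so grouping by fold in part fixes this direction. The median background was 10.98 in members with a smaller fold under 3 and 3.57 in those with at least 10, where it stood at the lowest level of the libraries. In the other ZmDDM1A regions of these folds it was 11.5 and 7.40. The part of the background in the zmddm1a shares was not tested.

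**Figure D4:**
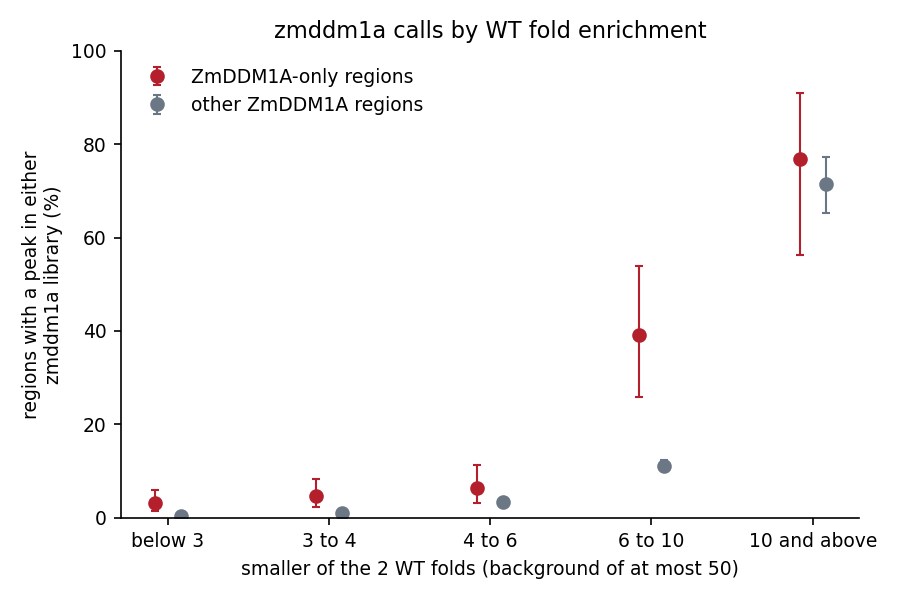
Points give the share, in percent, of regions with a background of at most 50 that held a peak in either zmddm1a library, by the smaller of the 2 WT folds, for ZmDDM1A-only regions and all other ZmDDM1A regions; bars are 95% exact binomial intervals. Members stand at 39.2% against 11.2% at folds of 6 to 10, and at 76.9% against 71.6% at folds of at least 10.

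Many members lay close to a peak of another antibody, and those called in zmddm1a lay farther off. The rule asks only that the peaks do not overlap. The gap from a member to the nearest ZmDDM1B or ZmAGO4 peak had a median of 1619 bp, and 369 members (42.6%) had such a peak within 1000 bp. A ZmAGO4 peak lay within 1000 bp of 34.3% of the members and a ZmDDM1B peak within 1000 bp of 23.6%. For the 46 members with a peak in both zmddm1a libraries the median gap was 19356 bp, and for the 727 members without a zmddm1a peak, a different 727 from those of low background, it was 1079 bp. High-background members had a median gap of 15229 bp, against 1039 bp for the rest.

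The wider gap of members called in zmddm1a was seen at high and at low folds, in groups set after the values were seen. Among members with a background of at most 50 and a smaller fold of at least 6, the median gap was 7900 bp for the 40 called in either zmddm1a library and 2389 bp for the 37 that were not. With a smaller fold below 6 it was 36661 bp for 29 and 847 bp for 621. A peak of another antibody lay within 1000 bp of 12.5% and 43.2% of the stronger members, and of 20.7% and 52.5% of the weaker ones.

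**Figure D5:**
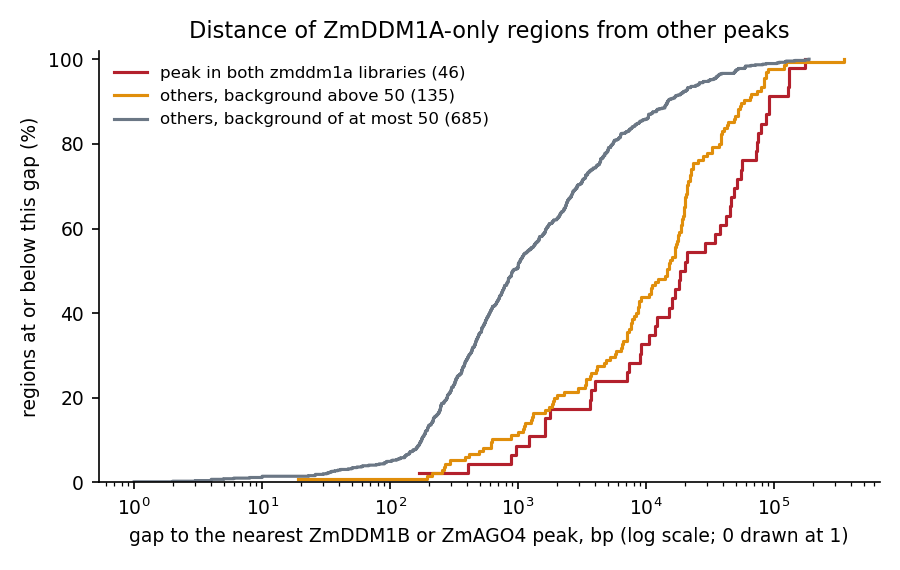
Curves give the cumulative share of ZmDDM1A-only regions, in percent, by the gap in bp (log scale) to the nearest ZmDDM1B or ZmAGO4 peak, for members with a peak in both zmddm1a libraries and for the others split by background. The curve of the 46 members called in both zmddm1a libraries, with a median of 19356 bp, lies to the right of that of the low-background others, about 50% of which lie within 1000 bp.

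The most isolated members were of several kinds. The farthest (chromosome 4, 229840297 to 229840585) lay 353336 bp from any ZmDDM1B or ZmAGO4 peak of WT, had WT ZmDDM1A folds of 2.11 and 2.06 over backgrounds of 66.4 and 74.7, and held zmddm1b peaks with folds of 2.92 and 2.79. The next, on chromosome 3 at 46559643 to 46559954, lay 187661 bp away and had WT folds of 7.25 and 5.91 and a zmddm1a fold of 7.47 in replicate 2 alone. The third, on chromosome 7 at 182380876 to 182381164, had WT folds of 3.50 and 2.35 and a zmddm1a fold of 2.96 in replicate 2 alone.

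At the edge of the rule, members and regions just outside it both had modest folds. The member nearest to another antibody's peak, on chromosome 5 at 68148886 to 68149178, touched a ZmAGO4 peak with a gap of 0 bp and had folds of 5.19 and 4.99. The next, from position 214573161 of chromosome 4, lay 2 bp from a ZmAGO4 peak and had folds of 5.97 and 3.99. The third, from position 157718730 of chromosome 9, lay 3 bp from a ZmDDM1B peak and had folds of 2.89 and 3.49. Just outside the rule, 3 regions overlapped another antibody's peak by 1, 2 and 6 bp. The first, from position 80082773 of chromosome 8, had folds of 3.03 and 2.69. The second, from position 6655400 of chromosome 5, had folds of 3.71 and 3.24. The third, from position 94540246 of chromosome 5, had folds of 3.30 and 3.60. None of these 3 held a zmddm1a peak, which only 3.54% of all ZmDDM1A regions held in either library, so nothing is read from this. In all, 662 ZmDDM1A regions missed membership through a peak of exactly 1 of the 4 other lists, 257 and 263 of them in ZmDDM1B replicates 1 and 2 and 74 and 68 in ZmAGO4 replicates 1 and 2. In the other direction, 1463 and 967 merged regions held a peak of ZmDDM1A replicate 1 or 2 alone.

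Along the chromosomes the members were spread much like other ZmDDM1A regions. The first and last 20% of the chromosomes held 54.3% of the members (50.9 to 57.6), against 55.2% of all ZmDDM1A regions. The members' share was the lower one on 7 of 10 chromosomes, and the largest differences were on chromosome 10, with 39.6% against 56.3%, and on chromosome 8, with 67.7% against 53.5%. By number, members made up between 2.12% of the ZmDDM1A regions on chromosome 2 and 3.17% on chromosome 8. Without high-background members these shares ran from 1.88% on chromosome 2 to 2.51% on chromosome 1, and the outer parts held 55.3% of the members. The middle 20% of the chromosomes held 20.1% of the high-background members and 11.1% of the rest.

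High-background members also lay in runs. Joining members less than 50 kb apart gave 74 runs of at least 2 members, which took in 98 of the 139 high-background members (70.5%) and 101 of the other 727 (13.9%). The run with the most members (chromosome 8, 160907264 to 160935943) held 16 over 28680 bp, all of high background, with folds of 1.66 to 2.81 in replicate 1 and 1.26 to 2.49 in replicate 2. Of these 16, zmddm1a replicate 1 called 2 and replicate 2 called 13, and zmddm1b called none.

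The second run, on chromosome 1 at 125697062 to 125757089, held 9 members, 7 of them of high background, of which only zmddm1a replicate 2 called any (4). The third, on chromosome 5 at 200344818 to 200385164, held 8 members, all of high background, with folds of 1.83 to 2.67 and 1.29 to 2.08, and none of the 4 mutant libraries called any. Over all 139 high-background members, zmddm1a replicates 1 and 2 called 2.88% and 50.4%, and zmddm1b replicates 1 and 2 called 3.60% and 6.47%. Over all ZmDDM1A regions these shares were 2.39%, 2.2%, 2.72% and 0.419% in the same order. The runs had like WT folds, and nothing is read from the counts called in single runs. Members of a run are neighbours and share their surroundings, so the 139 high-background members rest on fewer separate places.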

How the data were processed

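Each deposited list belongs to 1 ChIP library. Per the submitters' processing notes the series used Trim Galore, Bowtie2, Picard and MACS2 2.1.2, and B73 RefGen_v4. The sources used here give neither their roles nor the caller's settings. That build is of the line B73, whereas the embryos were W22. The fold is a ratio at the summit that the authors deposited, and p-values and q-values were deposited by the authors as −log10. The lowest −log10 q of the lists ran from 2.00 to 2.12. Replicates were not pooled. Libraries of input, IgG, H3K9me2 and mRNA-seq were left out and not analysed here.

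Peaks were merged, counted and measured with Python 3.11.15, numpy 2.4.6, pandas 2.3.3 and scipy 1.17.1. A region took the fold and summit of its strongest ZmDDM1A peak in each library. Pileup N and background were solved from fold = (N + 1) / (background + 1) and a Poisson p-value, a procedure tested on simulated data made with the same formula. Whether the authors scaled ChIP or control is not stated, so pileup and background are on the caller's scale and were recovered for the WT ZmDDM1A lists only. Gaps run from edge to edge, and chromosome length was taken as the largest peak end found. Intervals are exact Clopper-Pearson 95% intervals, and a permutation test compared libraries. Named regions were the 10 members with the highest smaller fold, the 5 highest with both zmddm1a peaks, the 3 farthest from and nearest to another antibody's peak, the 3 regions removed by the smallest overlap and the 3 runs with the most members. Alternatives changed the q and fold minimums, the overlap rule, the merging distance, the replicates used and, after seeing the data, the background. Members, rules and lists were chosen with earlier results of these data known.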

Additional observations from a re-analysis of the deposited data

How the results depend on the processing

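Over 9 results 72 alternatives were run, of which 43 were labelled as unchanged, 29 as moved and 0 as reversed. The label rested on the interval or SD of the reported value for most results, and on a fixed ratio for counts of members. For the zmddm1a share only the sign of zmddm1a minus zmddm1b was judged, which the rule favours, so its label could not show a move. The numbers of labels are thus no measure of stability. The causes of the moves were not tested. The permutation test, whose direction the rule favours and which could not pass 0.05, says nothing on stability. The number of members was 1706 when another antibody counted only with a peak in both of its lists, and 2782 to 3146 with 1 replicate of each antibody. Their share of ZmDDM1A regions was 4.28% with folds of at least 4, 5.14% when both lists had to call, 3.51% when removal needed 50% coverage, 1.94% with peaks up to 500 bp apart merged, 2.20% without high-background regions, and 6.997% to 7.78% with 1 replicate. The median fold was 3.40 over both libraries, and 3.88 at −log10 q of at least 5, 5.20, 3.60, 3.57 and 3.72 under the fold, both-lists, merging and high-background settings, and 3.09 to 3.27 with 1 replicate. The median width was 406 bp (both lists), 431 bp (50% coverage) and 276 to 278 bp (1 replicate). Replicate summits lay 26 bp (q), 24 bp (fold), 41 bp (coverage) and 37 bp (high background left out) apart. The zmddm1b share was 0.0799% with folds of at least 4, 1.53% with merging, 0.206% without high-background members 0.341% to 1.11% with 1 WT replicate, and 1.27% and 0.693% without mutant replicate 1 and 2. The zmddm1a share was above that of other ZmDDM1A regions under every alternative run, for example 3.67% against 1.81% and 5.07% against 1.76% with 1 WT replicate, 9.27% against 4.00% with folds of at least 4 and 13.0% against 2.25% with merging; the looser single-replicate sets hold all 866 members among others. It was 14.7% without mutant replicate 1 and 6.70% without mutant replicate 2. High-background members numbered 146 above 30 and 116 above 100. Both alternatives on the background were chosen after seeing the data.

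With the replicate block the zmddm1a share was 10.7% and the zmddm1b share 0.982%, 9.70 percentage points apart; the exact sign-flip p = 0.5 is the lowest that 2 numbers allow, and nothing is read from it, since the rule favours its sign. The members could not show whether the replicate numbers of the 2 mutants were paired. In both replicate 1 libraries 0 members were met and in both replicate 2 libraries 4, against 1 and 2 in differently numbered ones. The zmddm1b libraries met only 6 and 11 members, of which 5 and 9 were of high background. Of the high-background members zmddm1a replicate 1 called 2.88% and replicate 2 called 50.4%, whatever the numbering.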

Other observations

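The pileups of the WT ZmDDM1A libraries had a ceiling. The highest pileup at any of the 45957 and 45011 summits was 382 and 400 fragments, and the narrowest peaks were 191 and 200 bp wide, so that the ceiling was 2 times the narrowest width in each library. Within 10% of this ceiling lay 131 of all 45957 summits in replicate 1 and 57 of all 45011 in replicate 2. Of the members, 30 in each library had such a pileup, and all 30 were of high background. The part of the ceiling in the low folds of these members was not tested.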
